A study of Mus musculus with 12 samples.

Results

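Gene expression in the adrenal medulla of germ-free mice was compared between animals given insulin and animals given saline. The comparison used 6 of the 12 arrays of the study, chosen by their labels, and each of its 2 groups held 3 animals with 1 array per animal. Germ-free mice are raised without any microorganisms. All animals of both groups were male germ-free C57Bl6 mice that had been fasted for 3 h with free access to water, and their age is not given in the labels. They received an intraperitoneal injection of regular human insulin (Humulin, 2 IU/kg) or of the same volume of saline, and the medullae were dissected 90 min later. The values were log2 RMA intensities (background-corrected, quantile-normalized probe set signals) for 19572 probe sets with 1 gene symbol, which represented 19505 genes. Colonized male mice of the same strain, given the same injections, made up the other 6 arrays. They entered the fit and are cited where the insulin effects of both states are set side by side. The labels do not say whether animals shared a cage, isolator or day, so p-values measure the spread between these samples.

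The adrenal medulla consists mainly of chromaffin cells, neuron-like secretory cells of neural crest origin that store adrenaline and noradrenaline with granins and peptides in dense-core granules. When blood glucose falls, as after a large dose of insulin, preganglionic fibres of the splanchnic nerve release acetylcholine and the peptide PACAP onto these cells. Calcium entry then drives secretion, and calcium, cyclic AMP and MAP kinase signals induce immediate early genes and later peptide and enzyme genes that help refill the granules. The study, by its title, asked how the absence of gut microbes alters this sympathoadrenal response.

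In germ-free mice insulin was followed by higher levels of genes of cell activation such as Ptgs2, Tac1 and Fosb, of glycogen metabolism genes such as Ppp1r3b and of pituitary hormone genes such as Gh. Lower levels were seen for transcription factor genes of the chromaffin lineage such as Gata2 and for the vasodilator gene Adm. A large group of genes of the intestinal lining such as Reg1 was lower too. Markers of the absorptive cells of that lining averaged 7.17 after saline and 5.21 after insulin in germ-free arrays. In colonized arrays they averaged 5.20 and 5.09. The part of tissue from outside the gland in the intestinal and pituitary changes was not tested. In all, 85 genes (0.436% of those tested) passed an adjusted p under 0.05, 27 higher (0.138%) and 58 lower (0.297%) after insulin. Such genes are termed called. The test was limma's moderated test on all 12 arrays, with Benjamini-Hochberg adjustment over all probe sets, and changes are given with the standard error of that fit. Over all genes the median change was 0.0063, 51.7% of genes were above 0, and 207 genes differed by a log2 value of 1 or more, 63 of them called. Both groups of 3 arrays were free of overlap for 19.7% of the genes tested (9.56% higher, 10.1% lower) and for 85 of the 85 called genes. Fitted on the 6 germ-free arrays alone, limma called 318 genes (1.63%), 118 higher (0.605%) and 200 lower (1.03%), and 82 of the 85 were among them. The median standard error was 0.116 in that fit and 0.144 with all 12 arrays, where the colonized saline arrays had the largest median SD per gene (0.196, against 0.124 and 0.130 in the germ-free groups given saline and insulin). With single arrays left out of the fit to 12 arrays, from 25 genes (without insulin array 12) to 199 genes (without colonized saline array 2) were called. Calls are those of the fit to 12 arrays unless the 6 arrays are named.

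The germ-free arrays were alike within groups, with correlations of 0.990 to 0.993 across probe sets, and 0.979 to 0.990 between groups. The median of 5222 negative control rows lay between 5.30 and 5.54 in every germ-free array, with a group value of 5.42 after saline and 5.42 after insulin. It lay between 4.70 and 4.83 in the colonized arrays, which bears on any difference between the colonization states at low levels. Of the called genes, 25 lay on average below the negative controls after insulin and 6 after saline (1 in both), so that their fold changes are not exact. Markers of the labelled tissue were high, with Th between 13.07 and 13.54 in the germ-free arrays, but so were those of the adrenal cortex, whose 11 markers averaged 11.96, 11.97 and 11.93 in the saline arrays 7, 8 and 9 and 11.93, 11.97 and 12.01 in the insulin arrays 10, 11 and 12. Tissue from outside the gland was also represented, as given beside the gene groups it touches.

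**Figure D1:**
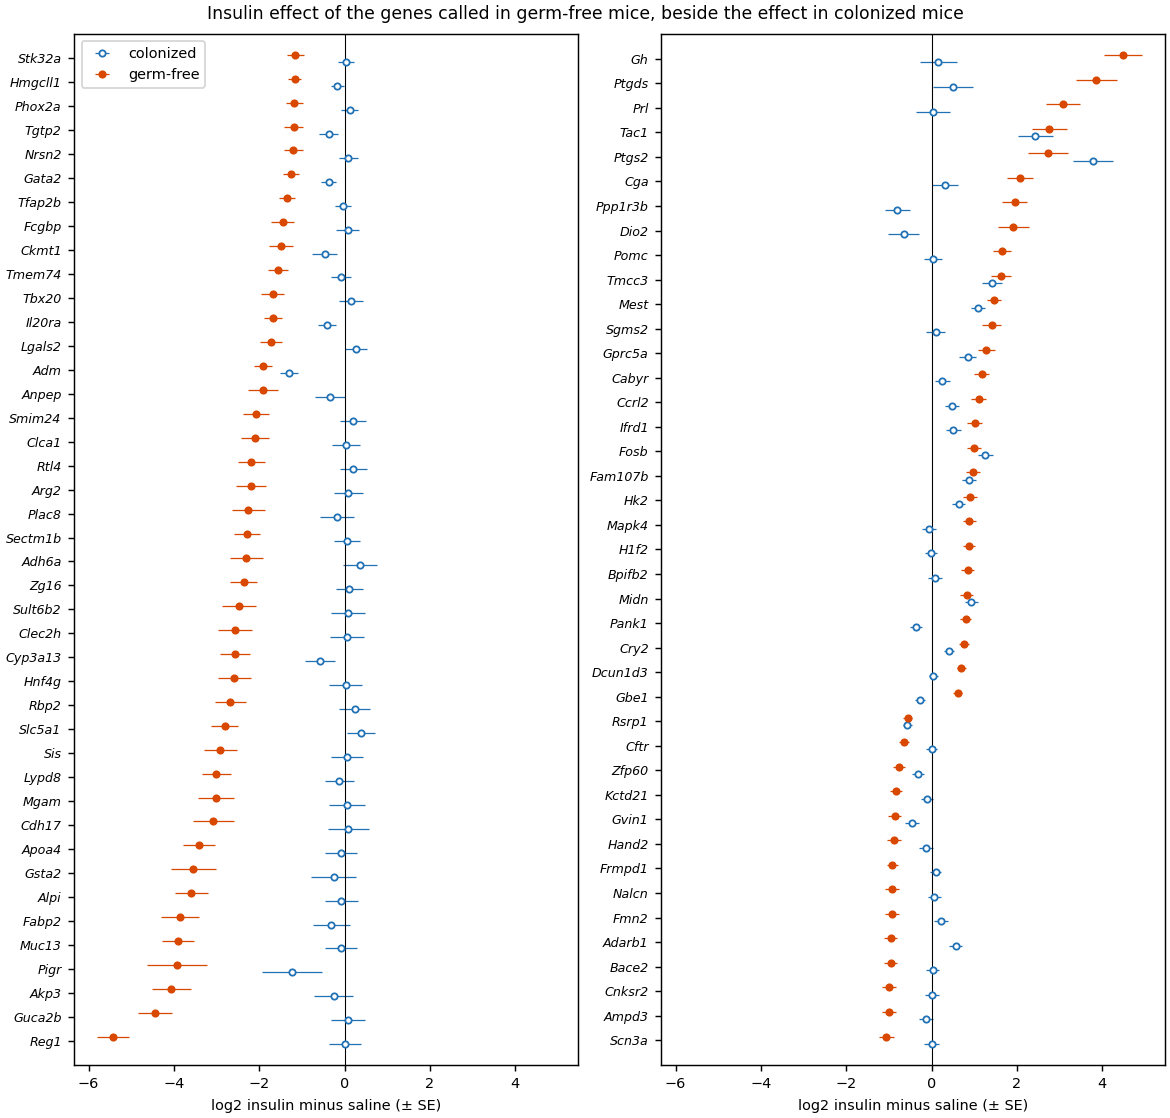
Log2 change after insulin (x axis, with standard error) of the 83 called genes with an informative symbol, in germ-free mice (filled orange) and in colonized mice (open blue). Genes on the left run down to Reg1 at -5.43 in germ-free mice, and most of them lie near 0 in colonized mice, while Ptgs2, Tac1, Tmcc3, Mest and Fosb lie above 0 in both.

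Ptgs2, Tac1 and Fosb, genes that stimulated cells switch on, rose after insulin. Ptgs2 encodes the inducible cyclooxygenase of prostaglandin synthesis, and its level was 6.92, 7.59 and 6.90 after saline and 10.02, 9.54 and 10.02 after insulin. The rise of 2.73 ± 0.46 (adjusted p = 0.0232) corresponds to a 6.63-fold higher level, with 7 of the 12 fits that each left out 1 array keeping the call. Tac1, the precursor gene of substance P and neurokinin A, stood at 5.57, 4.71 and 5.12 after saline and 8.24, 7.62 and 7.80 after insulin, a rise of 2.75 ± 0.41 (adjusted p = 0.0122). Its saline level was below that of the negative controls. Fosb, which codes for a subunit of the AP-1 transcription factor, was measured at 8.45, 8.36 and 8.28 after saline and 9.06, 9.36 and 9.65 after insulin. The 3 insulin arrays were all above the 3 saline arrays, a rise of 0.99 ± 0.17 (adjusted p = 0.0283), and the colonized arrays covered 6.82 to 7.49 after saline and 8.35 to 8.48 after insulin. The germ-free saline arrays thus overlapped the colonized insulin arrays.

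Promoter sequence bears on this group because several of its members are textbook targets of the cyclic AMP response element (CRE), the site bound by the CREB factor that splanchnic stimulation activates. The 250 bases before the transcription start were searched on both strands for the half-site TGACG and the full element TGACGTCA, which contains the half-site on each strand. The windows come from RefSeq on GRCm38.p6. The half-site was present in 11 of the 22 genes called higher that had a window (50.0%), in 9 of the 47 called lower (19.1%) and in 23.4% of all 15691 genes with a window. Genes with several starts have several windows. Counted per window, the shares were 30.8% of 39 for the genes called higher and 20.9% of 19143 for all. The full element stood in 2 of the 22, Dio2 and Dcun1d3, and in 2.27% of all genes. Ptgs2, for lack of a window or of a match, was not among the 11 genes called higher with the half-site. Those 11 included genes of other groups, such as Prl and Hk2. The windows of Tac1, Fosb and Dio2 are shown because these genes rose and each holds the motif. It is printed in capitals, and the last base adjoins the start.
Tac1 (chr6:7554811-7555060, plus strand): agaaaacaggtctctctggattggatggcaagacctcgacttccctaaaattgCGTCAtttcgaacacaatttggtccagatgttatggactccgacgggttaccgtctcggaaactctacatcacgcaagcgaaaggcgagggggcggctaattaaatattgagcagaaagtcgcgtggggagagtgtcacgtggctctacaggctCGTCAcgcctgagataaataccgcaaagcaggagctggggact
Fosb (chr7:19310046-19310295, minus strand): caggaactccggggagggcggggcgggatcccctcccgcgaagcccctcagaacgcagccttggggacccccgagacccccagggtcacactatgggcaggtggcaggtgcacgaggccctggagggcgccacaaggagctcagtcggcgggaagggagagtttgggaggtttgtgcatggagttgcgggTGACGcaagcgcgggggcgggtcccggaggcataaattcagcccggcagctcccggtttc
Dio2 (chr12:90739039-90739288, minus strand): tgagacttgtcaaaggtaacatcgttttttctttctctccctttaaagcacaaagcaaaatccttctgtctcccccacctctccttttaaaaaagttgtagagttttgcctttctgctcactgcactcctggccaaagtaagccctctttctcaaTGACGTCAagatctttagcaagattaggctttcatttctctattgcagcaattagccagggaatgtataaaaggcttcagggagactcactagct

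The Tac1 window holds the half-site at 197 and 43 bases before the start, both times on the opposite strand (read as CGTCA), and the Fosb window once, at 60. In Dio2 the full element begins 95 bases before the start. A match of letters is no measure of binding.

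Dio2, which encodes the deiodinase that converts thyroxine to active triiodothyronine, was 7.13, 6.81 and 6.56 after saline and 8.36, 8.65 and 9.22 after insulin in the germ-free arrays. It rose by 1.91 ± 0.36 (adjusted p = 0.0458), while the log2 difference in colonized mice was -0.65. The difference between the states, 2.56 ± 0.51, had an adjusted p of 0.113. Dio2 is also a gene of brown fat, and markers of that tissue moved with it, as described with the metabolic genes.

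Of 17 genes listed as cyclic AMP targets, 4 were called higher (0.138% over all genes) and none lower, namely Tac1, Ptgs2, Dio2 and Fosb. The list had a median change of 0.58 with 13 members above 0, against 0.0063 and 51.7% over all genes. In the fit to the 6 germ-free arrays 9 were called higher and 1 lower (0.605% and 1.03% over all genes). The highest among those not called with 12 arrays was Nr4a2, an orphan nuclear receptor that acts on the tyrosine hydroxylase gene, at 10.05, 10.44 and 9.88 after saline and 11.71, 11.83 and 12.11 after insulin (1.77 ± 0.36, adjusted p = 0.0641). Its adjusted p was 0.0022 with the 6 arrays alone. Among 31 immediate early genes 27 were above 0, with a median of 0.30 and Fosb as the sole called member, and 16 had insulin arrays wholly above the saline arrays (9.56% over all genes). In colonized mice the median of this list was 0.63. Its mean level was 8.08 after saline and 8.74 after insulin in colonized arrays, and 8.58 after saline and 8.95 after insulin in germ-free arrays. The germ-free saline level was thus above the colonized saline level. Junb had a change of 1.13 (adjusted p = 0.201) and Csrnp1 one of 0.95 (adjusted p = 0.109). The members most often used as activity markers were flat or small: Fos was at 7.72, 8.12 and 7.79 after saline and 7.68, 7.85 and 7.91 after insulin, a change of -0.063 ± 0.26, and its sign turned under 3 of the alternatives given in the closing section. Egr1 stood at 0.15 ± 0.19 and Nr4a1 at 0.41 ± 0.21 (log2 differences), neither called. Of 16 genes of MAP kinase feedback, which includes the dual-specificity phosphatases, none was called, with a median of 0.23 and Dusp1 highest at 0.50.

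**Figure D2:**
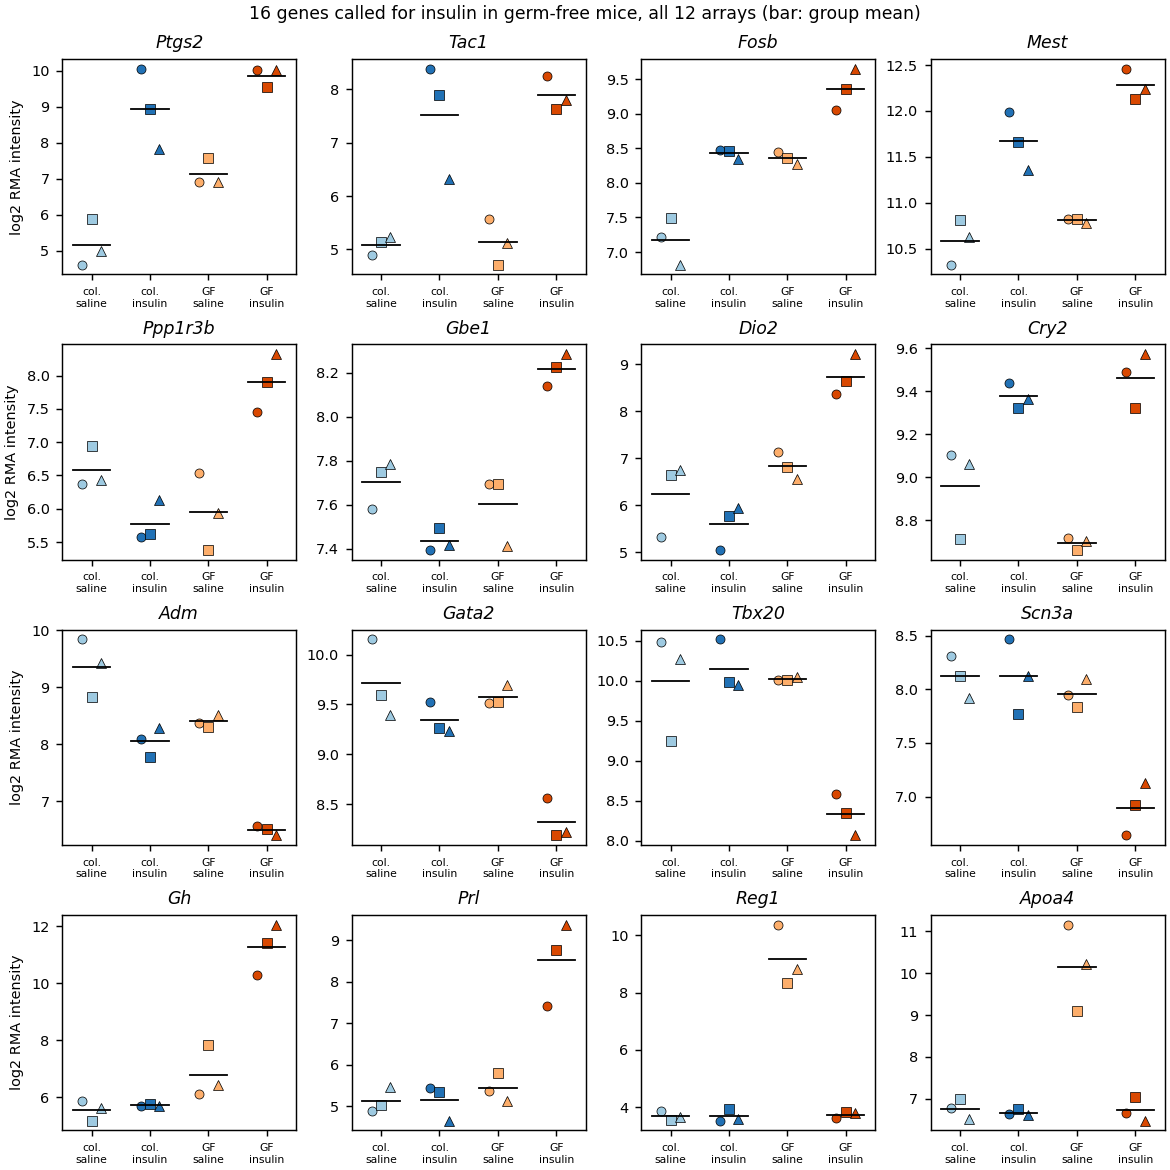
Log2 RMA intensity (y axis, its range set per gene) of 16 called genes in all 12 arrays, by group, with a bar at each group mean (circle, square and triangle tell apart the 3 animals of a group). Ptgs2, Tac1 and Mest rise after insulin in both states, Gata2, Tbx20 and Scn3a are low in the germ-free insulin arrays, and Reg1 and Apoa4 are high in the germ-free saline arrays.

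The peptide and granin genes that fill the granules showed no common direction. Of 21 such genes, 1 (Tac1) was called higher and none lower, 9 were above 0, and the median was -0.10. Gal, the galanin precursor, stood at 8.57, 9.04 and 9.24 after saline and 10.38, 9.80 and 9.92 after insulin (1.08 ± 0.32, adjusted p = 0.256), and Vgf, the precursor of several neuroendocrine peptides, at 6.80, 6.77 and 7.01 after saline and 8.15, 7.94 and 7.74 after insulin (1.08 ± 0.28, adjusted p = 0.183). For both genes the groups did not overlap, and both were called with the 6 germ-free arrays alone (adjusted p = 0.0339 and 0.00771). The log2 difference was -0.79 ± 0.23 for Scg3, a granin-binding protein of granules, -0.44 ± 0.18 for Chga, the main granin of chromaffin cells, and -0.10 ± 0.25 for Npy. None of these was called, the last with a sign that depended on the setting.

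The remaining genes that rose were of diverse function. Mest, an imprinted gene expressed from the paternal copy, was 10.82, 10.83 and 10.77 after saline and 12.46, 12.13 and 12.24 after insulin, and its rise of 1.47 ± 0.17 (adjusted p = 0.0023) was called in 12 of the 12 fits without 1 array. Tmcc3 rose by 1.64 ± 0.23 and Midn, whose product promotes the degradation of nuclear proteins, by 0.83 ± 0.15. These 3, with Ptgs2, Tac1, Fosb and the falling gene Adm, were the 7 called in both colonization states. In colonized mice Tmcc3 changed by 1.42 ± 0.23, Mest by 1.08 ± 0.17 and Midn by 0.93 ± 0.15, and for none of the 7 was the difference between states called (adjusted p = 0.62 for Mest, 0.871 for Tmcc3, 0.901 for Midn, 0.632 for Ptgs2, 0.891 for Tac1, 0.752 for Fosb and 0.534 for Adm). Sgms2, a sphingomyelin synthase, rose by 1.41 ± 0.23, Gprc5a, an orphan receptor induced by retinoic acid, by 1.28 ± 0.20, and Ccrl2, an atypical receptor that binds chemerin, by 1.10 ± 0.17. Ifrd1, a transcriptional co-regulator, rose by 1.01 ± 0.18. Further rises were called for Fam107b (0.96), the atypical kinase gene Mapk4 (0.89), the linker histone gene H1f2 (0.88), Bpifb2 (0.84), Cabyr (1.17) and Dcun1d3 (0.70), a regulator of cullin neddylation. In 17 of the 27 genes called higher (63.0%) the germ-free insulin arrays lay above each of the other 9 arrays of the study. Over all genes 341 did so (1.75%). They came from the 1865 genes with insulin arrays wholly above the saline arrays, a trait that every gene called higher had. Of the 27, 21 had a change above 0 in colonized mice too (77.8%). Of the 58 genes called lower, 25 had a change below 0 there (43.1%). Over all genes 49.7% had the same sign in both states.

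Among 18 clock genes 1 was called, the repressor gene Cry2. Its level was 8.72, 8.66 and 8.71 after saline and 9.49, 9.32 and 9.57 after insulin, a rise of 0.77 ± 0.12 (adjusted p = 0.0137), with every insulin array above every saline array and a log2 difference of 0.42 in colonized mice. Per1, a clock gene that is also a cyclic AMP and glucocorticoid target, had a log2 difference of 0.56 (adjusted p = 0.227), and was called with the 6 arrays alone (adjusted p = 0.0261). The list as a whole had a median of 0.10.

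Ppp1r3b and Gbe1, genes of glycogen metabolism, rose after insulin. Mitochondrial genes were higher by small amounts without a call. Fat markers were higher by more in the same arrays, with a median of 1.40 over brown fat genes, of which Dio2 was called, and of 0.68 over adipocyte markers, of which none was. Ppp1r3b, which targets protein phosphatase 1 to glycogen and so favours its synthesis, was 6.54, 5.38 and 5.94 after saline and 7.46, 7.91 and 8.32 after insulin, a 3.85-fold rise (1.94 ± 0.29, adjusted p = 0.0124). Gbe1, the glycogen branching enzyme, was 7.69, 7.70 and 7.41 after saline and 8.14, 8.22 and 8.29 after insulin, a rise of 0.62 ± 0.11 (adjusted p = 0.0283). Both groups of arrays were fully separated for both genes. In colonized mice the log2 differences were -0.81 and -0.27, and the differences between the states had adjusted p values of 0.0552 and 0.0779. Of 18 genes of glycogen metabolism 2 were called higher (0.138% over all genes) and none lower. Of these genes 12 were above 0 (51.7% over all genes), and the median was 0.21. Pygl, the liver-type glycogen phosphorylase, had a change of 1.16 ± 0.43 that was not called. Hk2, the inducible hexokinase, was 7.42, 7.11 and 7.26 after saline and 8.04, 8.31 and 8.12 after insulin, a rise of 0.89 ± 0.16 (adjusted p = 0.0329). It was the sole called member of 20 genes of glucose uptake and glycolysis. Slc2a2, the glucose transporter of liver and gut, had the lowest value of the list (-3.21 ± 0.76, adjusted p = 0.128), and Slc2a1, the transporter of most cells, stood at -0.31 ± 0.13. Pank1, the kinase of the first step of coenzyme A synthesis, rose by 0.80 ± 0.14 (adjusted p = 0.0277) against -0.36 in colonized mice.

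The respiratory chain and ATP synthase list had 35 of 36 members above 0 and 31 with non-overlapping groups (9.56% over all genes), yet limma called none (11 higher at an unadjusted p under 0.05) and the median change was 0.23. Cycs (cytochrome c) had the largest change, 0.42 ± 0.16. In colonized mice the median was -0.18. Of 25 genes of fatty acid oxidation and PPAR targets limma called none (6 higher at an unadjusted p under 0.05), with 18 above 0 and a median of 0.21, against -0.44 in colonized mice. Cpt1b, the muscle and brown fat carnitine palmitoyltransferase, was highest (1.42 ± 0.48, adjusted p = 0.371). The mean level of 11 brown fat genes was 7.85, 7.09 and 7.12 in saline arrays 7, 8 and 9 and 8.51, 8.45 and 8.63 in insulin arrays 10, 11 and 12, and that of 13 adipocyte markers 10.19, 10.02 and 9.52 and 10.51, 10.67 and 10.99. Of these brown fat genes 10 were above 0. In colonized mice, where the respiratory and fatty acid oxidation medians were below 0, so were those of the fat markers, at -1.32 for brown fat genes and -0.96 for adipocyte markers, with none called. The colonized brown fat means covered 5.85 to 8.46 after saline and 5.66 to 6.17 after insulin. Ucp1, the uncoupling protein that defines brown fat, had a log2 difference of 1.67 ± 1.33 (adjusted p = 0.857) and Lep (leptin) one of 2.60 ± 0.63 (adjusted p = 0.147). With the 6 germ-free arrays alone 7 of 11 brown fat genes and 3 of 13 adipocyte markers were called, all higher (0.605% over all genes). With the adipocyte marker mean of each array as a covariate in the fit to 12 arrays, 111 genes were called. That count covers all genes. Apart from fits without 1 array, Ppp1r3b was called in 9 of 10 alternative fits, and Gbe1 and Pank1 in 10 of 11. The exception was the fit with enterocyte markers as covariate, which called no gene. Ppp1r3b, Gbe1 and Pank1 thus kept their call with the adipocyte covariate. Hk2 was called in 8 of 11 of the alternative fits and Dio2 in 6 of 10. The part of fat tissue in the changes of the metabolic genes was not tested.

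Genes of the insulin signal itself did not pass the test. Of 30 genes of insulin signalling and of targets of FOXO, the transcription factors that insulin switches off, none was called with 12 arrays or with the 6 alone, 3 and 0 had an unadjusted p under 0.05 in the higher and lower direction, 15 were above 0 and the median was 0.015. Insr, the insulin receptor gene, was 11.50, 11.44 and 11.55 after saline and 11.52, 11.57 and 11.70 after insulin, and Irs2 was 10.47, 10.32 and 10.14 after saline and 10.43, 10.42 and 10.59 after insulin (0.10 ± 0.11 and 0.17 ± 0.12). Txnip, which restrains glucose uptake and falls with insulin in many tissues, had a log2 difference of -0.29 ± 0.16 (adjusted p = 0.721) and Fbxo32, a FOXO target of muscle, one of -0.19 ± 0.17. In colonized mice Txnip was called, with a change of -1.17 ± 0.16 (adjusted p = 0.0224). The difference between the states was 0.88 ± 0.23 (adjusted p = 0.224), so a difference was not shown.

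**Figure D3:**
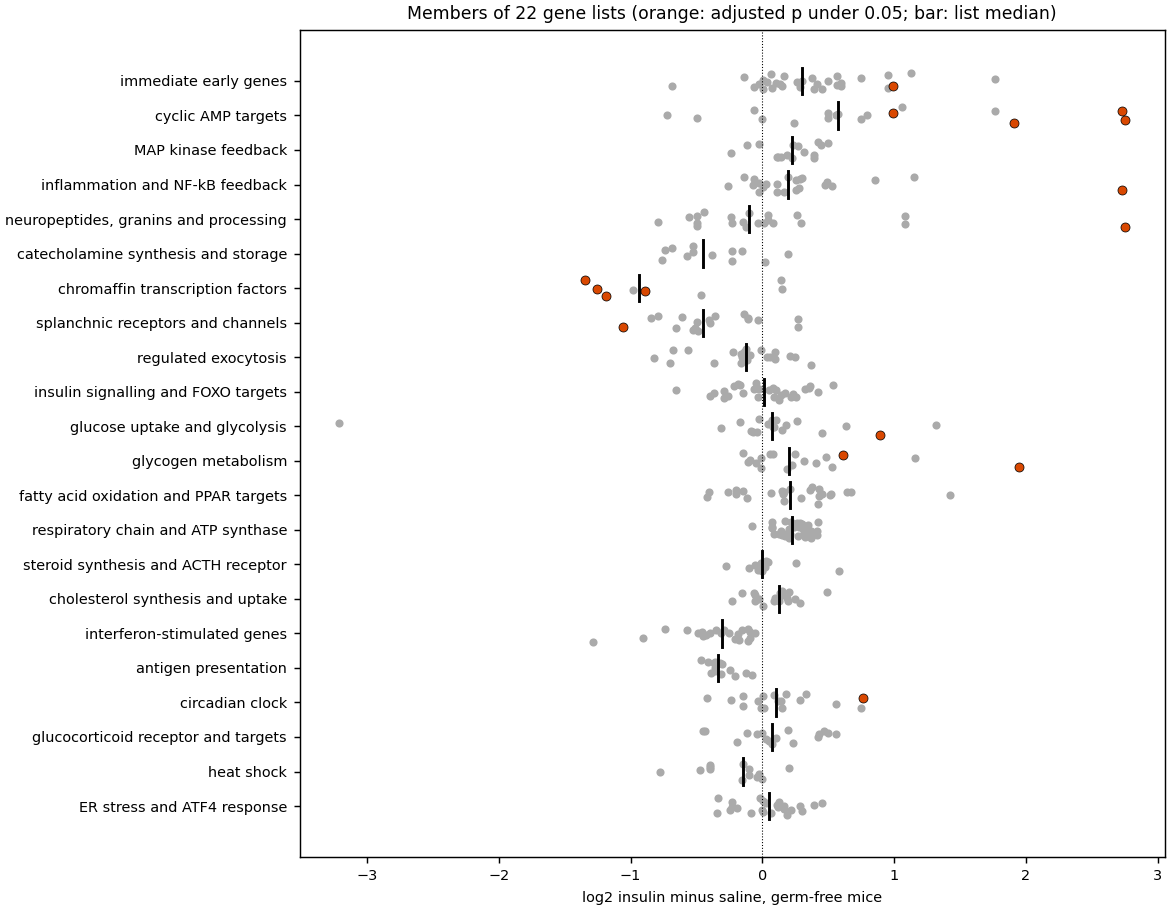
Log2 change after insulin in germ-free mice (x axis) for each measured member of 22 pathway lists, with called genes in orange and the list median as a black bar. Cyclic AMP targets have a median of 0.58 and chromaffin transcription factors one of -0.93, while the insulin signalling list centres on 0.015.

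Of the transcription factor genes that set the identity of chromaffin cells, 4 fell after insulin. Tfap2b, an AP-2 factor of the sympathetic lineage, was 8.23, 8.34 and 8.39 after saline and 7.13, 6.94 and 6.84 after insulin, and it fell by 1.35 ± 0.18 (adjusted p = 0.00627). Gata2 was 9.51, 9.52 and 9.70 after saline and 8.56, 8.19 and 8.22 after insulin, with all insulin arrays below all saline arrays, and it fell by 1.26 ± 0.18 (adjusted p = 0.0101). Phox2a, a homeodomain factor that activates the dopamine beta-hydroxylase gene, was 7.86, 8.26 and 8.08 after saline and 7.21, 7.03 and 6.42 after insulin (-1.18 ± 0.20, adjusted p = 0.0222). Hand2, a basic helix-loop-helix factor of noradrenergic cells, was 7.86, 8.07 and 8.12 after saline and 7.22, 7.13 and 7.04 after insulin (-0.89 ± 0.16, adjusted p = 0.0369). These were 4 of the 8 factor genes measured (0.297% called lower over all genes), with none called higher, a median of -0.93 and 6 below 0. Hand1 had a change of -0.98 ± 0.28 that was not called. In colonized mice the log2 differences of the 4 genes were -0.041 (Tfap2b), -0.37 (Gata2), 0.12 (Phox2a) and -0.13 (Hand2). The differences between the states were not called, at adjusted p values of 0.1, 0.292, 0.134 and 0.329. Of the 12 fits without 1 array, 11 called Tfap2b, 9 Gata2, 8 Phox2a and 5 Hand2.

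The enzymes and transporters by which chromaffin cells make and store catecholamines did not pass the test. Of 12 genes of catecholamine synthesis and storage limma called none (5 lower at an unadjusted p under 0.05), 10 were below 0, 8 had insulin arrays wholly below the saline arrays (10.1% over all genes), and the median was -0.45. Th, the rate-limiting enzyme, was 13.41, 13.46 and 13.54 after saline and 13.47, 13.18 and 13.07 after insulin (-0.23 ± 0.16). Dbh, which makes noradrenaline, was 13.00, 13.00 and 13.18 after saline and 12.87, 12.40 and 12.19 after insulin (-0.57 ± 0.19, adjusted p = 0.346). The log2 difference was -0.74 ± 0.27 for Pnmt, which makes adrenaline, and -0.53 ± 0.18 for Ddc. The vesicular transporter gene Slc18a1 stood at -0.76 ± 0.36 and the cofactor gene Pcbd1 at -0.69 ± 0.22. The last pair was called in the fit to 6 arrays (adjusted p = 0.0456 and 0.0494). As a whole, 14 chromaffin cell markers averaged 10.14, 10.20 and 10.26 in saline arrays 7, 8 and 9 and 9.89, 9.57 and 9.43 in insulin arrays 10, 11 and 12, and colonized arrays ranged from 10.28 to 10.79. Adrenal cortex markers, given above, lay at nearly one level over the same arrays. In bulk tissue fewer chromaffin cells and less RNA per chromaffin cell cannot be told apart. With the cortex marker mean as a covariate 87 genes were called in all, and Tfap2b, Gata2 and Phox2a kept their call. Apart from fits without 1 array, each of them was called in 10 of 11 alternative fits, and Hand2 in 9 of 11. The share of chromaffin cells was not tested.

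Among receptors and channels that receive the splanchnic signal, the sodium channel gene Scn3a fell. Of 18 such genes 1 was called lower, 16 were below 0, 13 had non-overlapping lower insulin arrays (10.1% over all genes) and the median was -0.45. Scn3a was 7.95, 7.83 and 8.10 after saline and 6.64, 6.92 and 7.13 after insulin (-1.06 ± 0.18, adjusted p = 0.0232). Adcyap1r1, the PACAP receptor, was 10.27, 10.19 and 10.37 after saline and 9.86, 9.39 and 9.06 after insulin (-0.84 ± 0.26, adjusted p = 0.302), and the nicotinic subunit gene Chrnb4 stood at -0.79 ± 0.34. Nalcn, the sodium leak channel gene, stood outside the list and fell by 0.92 ± 0.16 (adjusted p = 0.0277). Of 21 genes of regulated exocytosis limma called none (4 lower at an unadjusted p under 0.05), with a median of -0.13 and Snap25, a SNARE protein of the fusion complex, at -0.83 ± 0.24.

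Other called genes shared this pattern of low values in the germ-free insulin arrays. In 21 of the 58 genes called lower (36.2%) the 3 germ-free insulin arrays lay below each of the other 9 arrays. Over all genes 648 showed this (3.32%). They came from the 1969 genes with insulin arrays wholly below the saline arrays, a trait that every gene called lower had. The share over all genes is therefore no like baseline. Tfap2b, Gata2, Phox2a, Hand2, Scn3a and Nalcn were among the 21. Tbx20, a T-box factor, was 10.00, 10.01 and 10.05 after saline and 8.58, 8.34 and 8.07 after insulin and fell by 1.69 ± 0.27 (adjusted p = 0.0162). Il20ra, a receptor subunit for interleukins of the IL-20 group, was 7.03, 6.79 and 6.82 after saline and 5.06, 5.10 and 5.42 after insulin (-1.69 ± 0.21), and Hmgcll1, a lyase-like gene of ketone body synthesis, was 7.54, 7.44 and 7.73 after saline and 6.47, 6.34 and 6.39 after insulin (-1.17 ± 0.15). Il20ra and Hmgcll1 kept their call in 12 of the 12 fits without 1 array. Genes expressed in neurons followed: Tmem74 (-1.57), Nrsn2 (-1.21), the synaptic scaffold gene Cnksr2 (a 2-fold fall), Fmn2 (-0.94), an actin nucleator, and Frmpd1 (-0.92). The kinase gene Stk32a (-1.15), the AMP deaminase gene Ampd3 (-1.01), the protease gene Bace2 (-0.96), Kctd21 (-0.83) and Rtl4 (-2.19) completed it, together with Adm and Sectm1b.

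Adm encodes adrenomedullin, a vasodilator peptide originally isolated from a chromaffin cell tumour. Its level was 8.38, 8.31 and 8.51 after saline and 6.57, 6.52 and 6.40 after insulin, a 3.74-fold fall (a log2 change of -1.90 ± 0.21, adjusted p = 0.0023). The groups were far apart compared with the spread within each, and the call held in 12 of 12 fits without 1 array. In colonized mice Adm changed by -1.31 ± 0.21, with arrays at 8.82 to 9.84 after saline and 7.78 to 8.29 after insulin, and the germ-free saline arrays lay just above the colonized insulin arrays. Of 7 genes of the adrenomedullin system Adm was the sole called member. The receptor-modifying protein gene Ramp1 stood at -0.63 ± 0.19 (adjusted p = 0.271) and Ramp3 at 0.23. Adm is also induced by hypoxia, and of 16 hypoxia targets Adm alone was called, with a median of 0.084.

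Genes of the intestinal lining formed the largest group of falls. Of 26 absorptive enterocyte markers 12 were called lower (0.297% over all genes) and none higher. Of these markers 21 had non-overlapping lower insulin arrays (10.1% over all genes), and the median was -1.87. Of 15 goblet, Paneth and crypt markers 3 were called lower (median -0.33). Reg1, a secreted lectin of pancreas and gut, was 10.37, 8.33 and 8.83 after saline and 3.62, 3.83 and 3.79 after insulin (-5.43 ± 0.37, adjusted p = 0.000102), and the colonized arrays ranged from 3.54 to 3.93. Guca2b, which encodes the gut peptide uroguanylin, was 11.23, 9.18 and 9.84 after saline and 5.39, 6.07 and 5.44 after insulin (-4.45 ± 0.40), with colonized arrays at 5.18 to 5.79. Apoa4, an apolipoprotein secreted with dietary fat, was 11.15, 9.08 and 10.22 after saline and 6.67, 7.05 and 6.48 after insulin (-3.42 ± 0.38), and the glucose and sodium cotransporter gene Slc5a1 was 8.26, 6.66 and 7.08 after saline and 4.45, 4.49 and 4.61 after insulin (-2.81 ± 0.33). For each of these 4 genes the insulin arrays lay in or close to the colonized range and the saline arrays stood above it, with array 7 highest and array 8 lowest.

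Most of the other genes of this kind shared this array order. Saline arrays 7, 8 and 9 lay above all other 9 arrays in 33 of the 58 genes called lower (56.9%). Over all genes 296 showed this (1.52%), all from the 1969 genes with insulin arrays wholly below the saline arrays. In 31 of the 33 array 7 was highest and array 8 lowest (93.9%, against 15.6% of all genes). Alkaline phosphatase genes Akp3 and Alpi changed by -4.06 ± 0.46 and -3.60 ± 0.39, the fatty acid binding protein gene Fabp2 by -3.86 ± 0.44, and the transmembrane mucin gene Muc13 by -3.91 ± 0.37. Digestive and absorptive genes included the disaccharidase genes Mgam (-3.02) and Sis (-2.91), the aminopeptidase gene Anpep (-1.91) and the retinol binding gene Rbp2 (-2.68). The cadherin gene Cdh17 changed by -3.08. The chloride channel gene Cftr (-0.65) was the called gene below the negative controls in both groups, at 3.85 after saline and 3.20 after insulin. Detoxification genes included Cyp3a13 (-2.58), Gsta2 (-3.55), Adh6a (-2.30) and Sult6b2 (-2.47). Mucosal defence genes included Lypd8 (-3.01), which keeps motile bacteria from the epithelium, Zg16 (-2.37), a lectin that binds bacterial walls, Clca1 (-2.10), Fcgbp (-1.45) and Pigr (-3.94), the transporter of mucosal antibodies. Hnf4g, a nuclear receptor of gut epithelium, changed by -2.58, and Clec2h (-2.57), Smim24 (-2.08), Plac8 (-2.26), Arg2 (-2.19), Sectm1b (-2.30), Lgals2 (-1.72) and Ckmt1 (-1.50) were also called lower. Akp3 with Alpi, Gsta2 and Reg1 belong to families of close copies whose probes may not be fully separate.

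Marker levels of this tissue moved with the group. The 26 enterocyte markers averaged 7.93, 6.46 and 7.10 in saline arrays 7, 8 and 9, 5.26, 5.25 and 5.12 in the insulin arrays and 5.07 to 5.39 in the colonized arrays. Of these markers 5 lay below the negative controls in both germ-free groups, the gut homeobox gene Cdx2 among them, as did 6 of the 15 goblet, Paneth and crypt markers, with Reg3b and Reg3g among those. Of 20 pancreas markers Reg1 was the sole called member and the median was 0.038. Hepatocyte markers averaged 9.82, 8.36 and 8.87 after saline and 8.14, 8.59 and 7.00 after insulin, with groups that overlapped, and none of 18 was called (median -1.41). Kidney markers had a median of -0.029. With the enterocyte marker mean of each array as a covariate, which follows the groups closely, limma called 0 genes (595 at an unadjusted p under 0.05), and the median standard error was 2.52 times that without it. The part of intestinal tissue in the changes of this group was not tested beyond that.

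**Figure D4:**
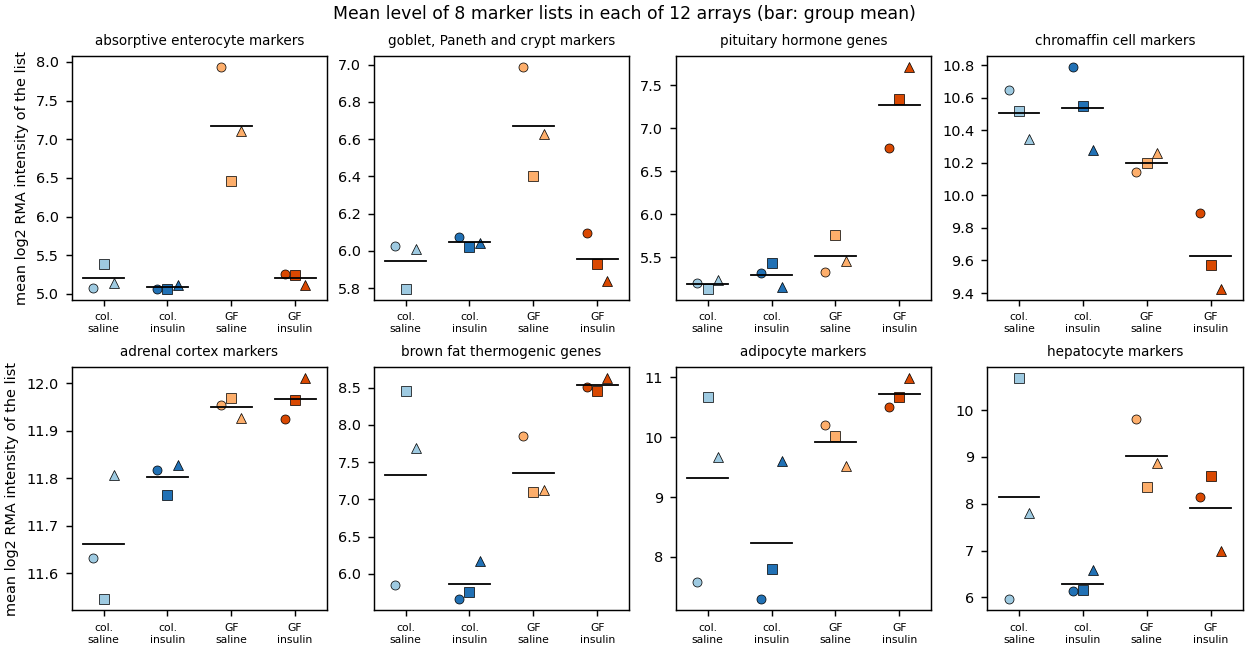
Mean log2 RMA intensity of 8 marker lists (y axis, its range set per list) in each of the 12 arrays, by group, with a bar at the group mean. Enterocyte markers are high in the 3 germ-free saline arrays, pituitary hormone genes in the 3 germ-free insulin arrays, and chromaffin markers are lowest in the germ-free insulin arrays.

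Pituitary hormone genes were among those that rose, at 4 of the 7 measured (0.138% called higher over all genes). Gh (growth hormone) was 6.11, 7.81 and 6.43 after saline and 10.31, 11.43 and 12.06 after insulin, a 22.3-fold rise (4.48 ± 0.44, adjusted p = 0.00151). Prl (prolactin) was 5.36, 5.81 and 5.14 after saline and 7.42, 8.77 and 9.38 after insulin (3.08 ± 0.40, adjusted p = 0.00611), Cga, the subunit shared by the glycoprotein hormones, was 4.29, 4.60 and 4.17 after saline and 5.63, 6.54 and 7.12 after insulin (2.08 ± 0.30, adjusted p = 0.0107), and Pomc, the precursor of ACTH, was 4.61, 5.26 and 4.95 after saline and 6.29, 6.47 and 7.04 after insulin (1.66 ± 0.21, adjusted p = 0.00563). In each gene array 12 was highest and array 10 lowest of the insulin arrays. The order 12, 11, 10 held in 16 of the 27 genes called higher (59.3%, against 19.5% of all genes). None of the hormone genes was called lower. Lhb had a log2 difference of 0.69 ± 0.15 and was not called, and Tshb lay below the negative controls in both groups. The hormone genes averaged 5.33, 5.75 and 5.46 in the saline arrays, 6.77, 7.34 and 7.71 in the insulin arrays and 5.13 to 5.43 in the colonized arrays. None of 10 pituitary lineage genes was called, the median was 0.085, and 5 of them, among them the pituitary factor genes Hesx1 and Lhx3, lay below the negative controls in both groups. Ghrhr, the receptor for growth hormone releasing hormone, was 5.89, 5.67 and 5.83 after saline and 6.14, 6.00 and 6.28 after insulin (0.35 ± 0.12). The part of pituitary RNA in this result was not tested beyond these levels.

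Ptgds, which makes prostaglandin D2 and is abundant in the meninges and choroid plexus, rose with the same array order. Its level was 6.21, 7.12 and 5.94 after saline and 9.22, 10.48 and 11.16 after insulin, a rise of 3.86 ± 0.47 (adjusted p = 0.00439), and 12 of 12 fits without 1 array called it. Ptgds and Ptgs2 were the 2 called genes among 20 of prostaglandin synthesis and reception, whose median was 0.044, and Ptges, the inducible prostaglandin E synthase, stood at 0.51 (adjusted p = 0.219). Of 16 brain and meninges markers Ptgds alone was called, the median was 0.15 and 5 lay below the negative controls in both groups. Mbp, a myelin gene, was next with 0.79 ± 0.31.

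Interferon-stimulated and antigen presentation genes were lower by small amounts, and none of either list was called. All 22 interferon-stimulated genes were below 0, with a median of -0.30, 11 non-overlapping (10.1% lower over all genes) and none called by limma (8 at an unadjusted p under 0.05). Iigp1, an interferon-induced GTPase gene, was 8.10, 6.61 and 7.29 after saline and 5.63, 6.33 and 6.18 after insulin (-1.29 ± 0.36, adjusted p = 0.226) and Ifit1 was 7.70, 7.32 and 7.52 after saline and 6.37, 6.64 and 6.82 after insulin (-0.91 ± 0.21, adjusted p = 0.12). Among genes outside the list, Tgtp2, another interferon-induced GTPase, fell by 1.19 ± 0.22 (adjusted p = 0.044) and Gvin1 by 0.86 ± 0.16 (adjusted p = 0.0329), both from families of close copies. All 14 antigen presentation genes were below 0 as well (median -0.34, 7 non-overlapping against 10.1% over all genes, 8 at an unadjusted p under 0.05, none called), with H2-DMa lowest at -0.47. Their mean level was 9.24, 8.81 and 9.07 in the saline arrays and 8.72, 8.72 and 8.75 in the insulin arrays, and array 7 was again the highest, as it was for the interferon list (7.72, 7.32 and 7.48 and 7.06, 7.19 and 7.16). The intestinal marker levels given above followed the same order in the saline arrays, and their part in these lists was not tested. Genes of inflammation and NF-kB feedback lay the other way, with 17 of 23 above 0, a median of 0.20 and Ptgs2 as the sole called member. Il6 had a log2 difference of 1.15 ± 0.25 (adjusted p = 0.0881) from levels below the negative controls, and Ccl3 was 5.59, 5.74 and 5.65 after saline and 6.55, 6.56 and 6.44 after insulin (0.85 ± 0.17), at an adjusted p of 0.0509.

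Adarb1, an adenosine deaminase that edits RNA, fell by 0.96 ± 0.16 (adjusted p = 0.0174). Its level was 11.59, 11.45 and 11.24 after saline and 10.37, 10.39 and 10.65 after insulin, and colonized arrays covered 8.97 to 9.46 after saline and 9.65 to 10.02 after insulin, so all germ-free arrays lay above all colonized arrays. The log2 difference in colonized mice was 0.57 ± 0.16. Of 5 deaminase genes of RNA it alone was called, and Adat1 stood at -0.35. Zfp60 (-0.76) and Rsrp1 (-0.56) were the remaining named genes called lower, and Rsrp1 was called in 1 of the 12 fits without 1 array. Rsrp1 and Cftr stood just inside the threshold (both at an adjusted p of 0.049).

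The insulin effect itself was compared between germ-free and colonized mice for all genes. This difference passed the test for 7 genes (0.0359%), and for 1 to 83 genes with single arrays left out (83 without colonized saline array 1, 1 without germ-free insulin array 12, among others). Reg1 (-5.43 ± 0.53), Guca2b (-4.52 ± 0.57), Muc13 (-3.83 ± 0.53) and Slc5a1 (-3.20 ± 0.46) had a more negative effect in germ-free mice, as had Adarb1 (-1.52 ± 0.22), and Gh (4.32 ± 0.63) and Slc25a20 (1.06 ± 0.15) a more positive one. Slc25a20, which carries acylcarnitines into mitochondria, was 9.15, 9.27 and 8.94 after saline and 9.56, 9.59 and 9.76 after insulin in germ-free mice, a change of 0.51 ± 0.11 that was itself not called (adjusted p = 0.0809), against -0.55 ± 0.11 in colonized mice. Outside these genes, Ppp1r3b had a difference of 2.75 ± 0.41 (adjusted p = 0.0552) and Alpi one of -3.52 ± 0.55 (adjusted p = 0.0641), the nearest to the threshold among genes called in germ-free mice. A difference between the states was thus tested and not called for the activity genes and for the chromaffin factor genes. The same test of insulin against saline among the colonized arrays passed 29 genes (0.149%).

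Pathway lists without a called member covered steroid synthesis (13 genes, median -0.0043), cholesterol synthesis (19 genes, median 0.12, against 0.43 in colonized mice), glucocorticoid receptor targets (17 genes, median 0.071), the ER stress and ATF4 response (24 genes, median 0.047) and neuronal calcium sensors (10 genes, median -0.049). Heat shock genes had a median of -0.14 with 12 of 13 below 0, and Hsph1 was lowest at -0.77. Of the 48 lists 26 had no called member. Among cell markers, none was called for macrophages (median -0.15), lymphocytes (0.027), endothelium (-0.027), fibroblasts (0.10), Schwann and sustentacular cells (0.20) or skeletal muscle (-0.010). Probe sets are termed dim where their mean over all 12 arrays lay under the 95th percentile of the negative controls (7.71). With them left out, limma called 32 genes, 15 higher and 17 lower. This cut also removed genes that were high in a single group, such as Gh (11.26 after insulin) and Apoa4 (10.15 after saline) in germ-free mice.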

How the data were processed

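Adrenal medulla of 12 mice was hybridized to 1 Affymetrix array each. The deposited values are log2 intensities, made by the authors with RMA per the submitters' processing notes, which also name limma, without versions. A joint RMA run of the 12 arrays is not stated in the sources used here. Of 28846 rows, 19572 had 1 symbol in the platform annotation. A gene was represented by its probe set of highest mean over 12 arrays (19505 genes, 55 with several). No column was identical to another.

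The 12 arrays were modelled jointly by limma (version 3.58.1, R 4.3.3) with 1 mean per group (8 residual and 4.08 prior degrees of freedom, no trend or robust option). P values were adjusted by Benjamini-Hochberg over 19572 probe sets, and genes were called at an adjusted p under 0.05. The number of arrays limits the precision. Tested on simulated data for the germ-free insulin effect over 19505 genes, the fit called 78 of 100 log2 changes of 1 and 95 of 100 of 2, with 9 false calls. The simulated noise was independent between genes and equal in spread across groups. In the data the median SD per gene differed, at 0.196 in colonized saline and 0.124 in germ-free saline arrays. The simulated counts therefore do not give the error rates of the data.

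Genes were named if called with an informative symbol, if among the 4 largest changes of a list, or if on a short set of medulla and insulin genes. Genes named for their level against the negative controls (Cdx2, Reg3b, Reg3g, Hesx1, Lhx3, Tshb), and Lhb were picked with their values in view. The 48 lists (760 genes, 687 measured), the comparison and the naming rule were chosen with earlier results of these data known. Alternatives were other row sets, normalizations, variance models, weights, covariates, thresholds, the germ-free arrays alone and leaving out each array. Promoter windows were read from a RefSeq table of GRCm38.p6 and searched for fixed letters.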

Additional observations from a re-analysis of the deposited data

Results flagged for a closer look

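For 7 genes the change from saline to insulin arrays differed between the germ-free and the colonized state by limma's test (adjusted p under 0.05, 3 arrays in each of 4 groups). The effect was more negative in germ-free mice for Reg1 (-5.43, adjusted p = 0.00496), Guca2b (-4.52, adjusted p = 0.0363), Muc13 (-3.83, adjusted p = 0.0462), Slc5a1 (-3.20, adjusted p = 0.0462) and Adarb1 (-1.52, adjusted p = 0.0462), and more positive for Gh (4.32, adjusted p = 0.0462) and Slc25a20 (1.06, adjusted p = 0.0462). The enterocyte marker mean was higher in the germ-free saline arrays and the pituitary hormone mean in the germ-free insulin arrays than in all others, and the negative controls lay lower in colonized arrays. Brown fat genes had a mean difference of 1.18 after insulin in germ-free mice and of -1.47 in colonized mice. With the adipocyte marker mean as a covariate 1 gene was called for the difference. The part of these tissues in the 7 differences was not tested beyond that.

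Outside the genes with a symbol, 6 transcript rows without one were called for the germ-free insulin effect. All 6 were lower after insulin, by log2 changes from -0.66 to -3.09, and 216 such rows had an unadjusted p under 0.05.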

How the results depend on the processing

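The 85 genes called for insulin in germ-free mice became 32 with dim probe sets left out, 543 with array weights, 318 with the germ-free arrays alone, 0 with the enterocyte covariate (595 at an unadjusted p under 0.05), 25 at an adjusted p under 0.01 and 135 under 0.10. Leaving out single arrays gave 25 to 199 (25 without germ-free insulin 12, 34 without 11, 53 without 10, 30 without germ-free saline 9, 52 without 7, 199 without colonized saline 2). Of the 83 called genes with an informative symbol, 21 were called in all 12 of these fits. The other alternatives gave 63 to 111. The 7 genes called for the difference became 1 with all rows of the table, 2 with median centring, 148 with array weights, 1 with the adrenal cortex and 1 with the adipocyte covariate, 0 with the enterocyte covariate (1171 at an unadjusted p under 0.05), 1 at an adjusted p under 0.01 and 49 under 0.10. Without single arrays there were 1 to 83 (83 without colonized saline 1, 43 without germ-free saline 8, 14 without colonized saline 2 or germ-free saline 7, 3 without germ-free insulin 10, and 1 without any other, save colonized saline 3 with 9).

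With the enterocyte covariate the germ-free change turned to 0.42 for Anpep, 0.17 for Arg2, 0.38 for Cdh17, 0.31 for Ckmt1, 0.099 for Clca1, 0.23 for Clec2h, 0.17 for Fbxo32, 0.28 for Fcgbp, 0.31 for Gsta2, 0.20 for H2-DMa, 0.25 for Hnf4g, 0.87 for Iigp1, 0.027 for Mgam, 0.087 for Pigr, 0.29 for Plac8, 0.64 for Slc2a2, 0.31 for Sult6b2 and 0.084 for Txnip. Each of these changes had an adjusted p of 0.9998 in that limma fit, whose median standard error was 2.52 times that without the covariate. Anpep and Cdh17 are themselves among the markers averaged into the covariate, so their turned signs are no independent test. Fos turned to 0.030 with the adipocyte covariate, and without single arrays ranged from -0.14 to 0.058 (0.058 without germ-free saline 8, 0.0054 without germ-free insulin 10). Npy turned to 0.054 with that covariate and ranged from -0.27 to 0.030 without single arrays (0.030 without germ-free insulin 12). The cause was not tested. No paired analysis was possible because the labels number the animals 1 to 12 and the groups share no number. Where levels lie near or below the negative controls, fold changes are not exact.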

Other observations

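With the 6 germ-free arrays alone, limma called 236 genes beyond those called with 12 arrays. The genes given here were chosen after their values were seen and follow no fixed list. Receptor, channel and transporter genes were called in both directions. Lower were the glutamate receptor gene Gria2 (-1.30), the angiotensin receptor gene Agtr2 (-1.27), the potassium channel gene Kcnk2 (-0.95), the neuropeptide Y receptor gene Npy2r (-0.96) and Slc6a2 (-0.67), which takes noradrenaline back up into cells. Higher were the cation channel gene Trpm3 (1.05), the gastrin-releasing peptide receptor gene Grpr (1.00), the orphan receptor genes Gpr3 (1.01) and Gpr19 (0.82), the potassium channel gene Kcnq1 (0.70) and the monocarboxylate transporter gene Slc16a1 (0.81). The kinase gene Sik1 (1.06), the glycolytic regulator gene Pfkfb3 (1.32) and the lipid synthesis genes Acaca (1.22) and Elovl6 (0.65) were also called higher. None of these passed an adjusted p under 0.05 with 12 arrays. Mean levels of chromaffin cell markers were lower (10.20 after saline, 9.63 after insulin) and those of adipocyte markers higher (9.91 and 10.72) in the same insulin arrays, and their part in these values was not tested.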
